A study of Homo sapiens with 9 samples.

Results

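Medium conditioned by senescent breast cancer cells was set against plain medium in the 6 libraries of these groups, out of 9 libraries in the series. The comparison covered every gene with a mean of at least 0.5 FPKM (fragments scaled by gene length and library size) over the 9 libraries, which was 13912 of the 58735 genes listed. All cells were of the established human breast cancer line MDA-MB-231, labelled WT, kept in DMEM with 10% fetal bovine serum at 37 °C. The 3 libraries named TIS CM came from cells given the medium of MDA-MB-231 cultures that had been made senescent with 100 ng/ml nocodazole, a microtubule-depolymerizing drug, for 72 h. Their titles read Noc CM and their treatment label reads TIS CM, for therapy-induced senescence. The 3 libraries named No CM came from cells in medium alone, and the 3 libraries named Cont CM, used here for the shared estimate of spread and for side-by-side values, came from cells in medium of non-senescent MDA-MB-231 cultures. Exposure was 72 h in the sample labels and 48 h in the series' design text. The No CM medium had not been on cells, so whatever any MDA-MB-231 culture adds to or takes from its medium is part of this contrast, and the labels do not say whether nocodazole was removed before the medium was collected.

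Senescent cells leave the cell cycle for good yet stay alive and release a mixture of cytokines, growth factors and proteases, the senescence-associated secretory phenotype. Interleukin-1 alpha and beta sit near the top of that programme, since they act through NF-kB and C/EBP beta to raise further cytokines such as IL-6, IL-8 and the colony-stimulating factors. MDA-MB-231 is a mesenchymal, hormone-receptor-negative line that already makes many of these factors in plain medium.

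The libraries held between 33874092 and 37913307 gene-assigned fragments in the No CM and TIS CM groups, recovered from the FPKM steps. Markers of the line were present in every group, with VIM at a mean of 358 FPKM and CD44 at 85.2 FPKM in No CM, whereas the hormone receptors ESR1 and PGR were below 0.01 FPKM in each group mean. Of 10 fibroblast, 16 immune and 10 endothelial markers, 2, 3 and 1 reached the level needed for testing. Among these were the fibroblast markers PDGFRB and PI16 and the immune markers CD14, CD8A and CSF1R. Of the rest, DCN and DPT, CD3D, CD163, MS4A1, NKG7 and TYROBP, and PLVAP were at 0 in all group means. On the first principal component, which took 30.4% of the variance, the No CM libraries lay between -14.8 and -10.85, the TIS CM libraries between -3.05 and -1.08, and the Cont CM libraries between 11.88 and 17.78. The replicate numbers come from the labels, but no source used here says whether the replicates were grown apart, so each p rests on library-to-library spread that could be purely technical.

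In TIS CM, 56 genes rose and 63 fell against No CM at an adjusted p under 0.05, the threshold for a call throughout (limma on log2(FPKM + 0.5), Benjamini-Hochberg adjustment over the 13912 genes). The called genes were 0.855% of those tested, with 0.403% higher and 0.453% lower. At an unadjusted limma p under 0.05 there were 1889 of the 13912 genes. These shares are the background for the counts on gene lists below. For comparison, Cont CM against No CM called 16.3% of the genes in the same fit and TIS CM against Cont CM called 4.48%; these contrasts share libraries with the one described. Most differences were small. Of the 119 called genes, 22 differed by more than 1.5-fold on the scale of FPKM + 0.5, 10 of them higher and 12 lower, and 5 more than 2-fold higher and 1 more than 2-fold lower. The median difference over all tested genes was 0.00 on the log2 scale, and 7121 of 13912 genes lay above 0. In all 119 called genes the 3 TIS CM libraries lay outside the range of the 3 No CM libraries, a condition that 12.7% of all tested genes met upward and 11.6% downward. The split of the calls by direction depended on scaling: 47.1% were higher as reported, 20.9% (28 of the called genes against 106 lower) with libraries scaled to equal FPKM sums, and 34.0% (88 against 171) with voom on the recovered fragments. In bulk RNA a lower level in every cell and a smaller share of cells expressing a gene cannot be told apart.

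**Figure D1:**
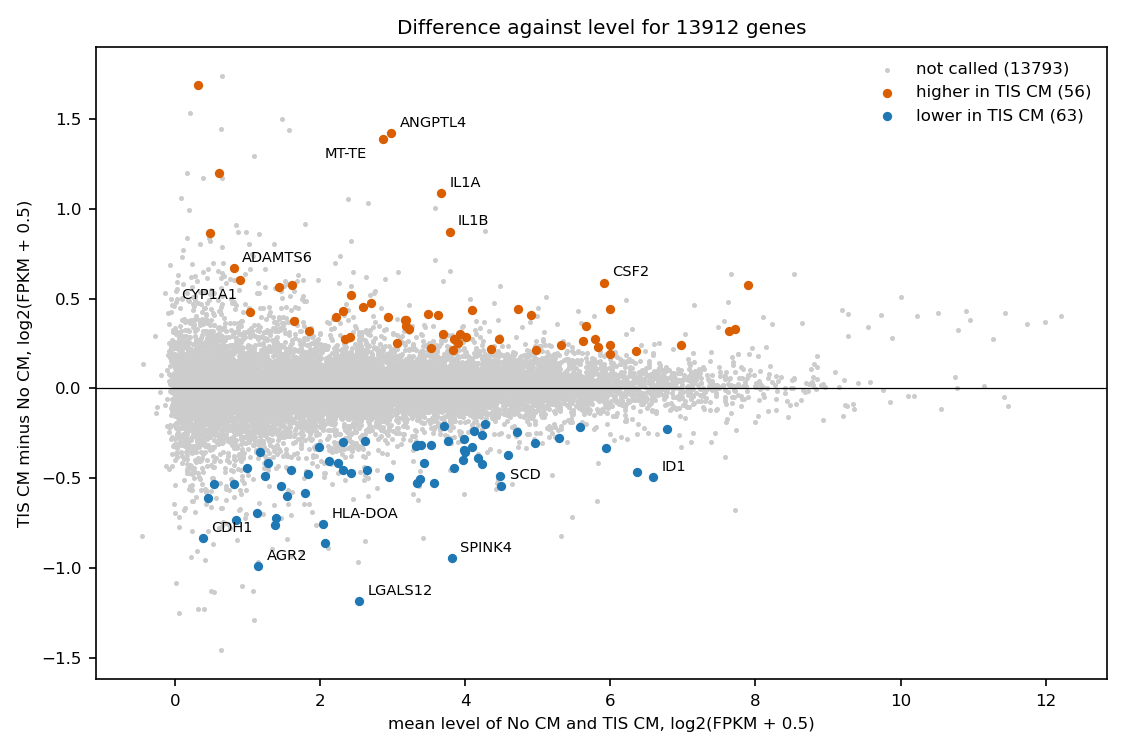
Difference between TIS CM and No CM in log2(FPKM + 0.5) on the y axis against the mean level of both groups on the x axis, with 1 point for each of 13912 genes; orange and blue points are the 56 higher and 63 lower calls. Among called genes, interleukin genes, ANGPTL4 and the mitochondrial transfer RNA MT-TE stand near the top, and LGALS12, AGR2, SPINK4 and CDH1 at the bottom, while called genes of high level differ by less than 0.6 on the log2 scale.

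The number of calls rested on single libraries. Without No CM library 1, 2 or 3 the same test kept 10, 35 or 9 of the 119 genes, and without TIS CM library 1, 2 or 3 it kept 8, 18 or 8. No called gene changed its direction in these omissions, but none could, because its TIS CM and No CM libraries did not overlap. In all 6 omissions 7 genes kept their call, namely IL1A, IL1B, SRGN, FNDC4 and MT-TE among the risers and SCD and IRX3 among the fallers. FNDC4, a secreted fibronectin-domain protein (9.12 ± 0.21 FPKM in No CM and 12.3 ± 0.30 FPKM in TIS CM; SD, n = 3), and the homeobox factor IRX3 (8.50 ± 0.09 and 5.90 ± 0.08 FPKM) lie outside the naming rule and are given because they are in this count. For every other gene called below, at least 1 omission took the adjusted p above 0.05. Fitting only the 6 No CM and TIS CM libraries, whose replicates varied less than those of Cont CM (median SD 0.07 and 0.0612 against 0.0964 on the log2 scale), kept 118 of the 119 and called 176 genes higher and 155 lower. Below, called and passed refer to the limma fit of all 9 libraries unless the fit of 6 libraries or voom is named.

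**Figure D2:**
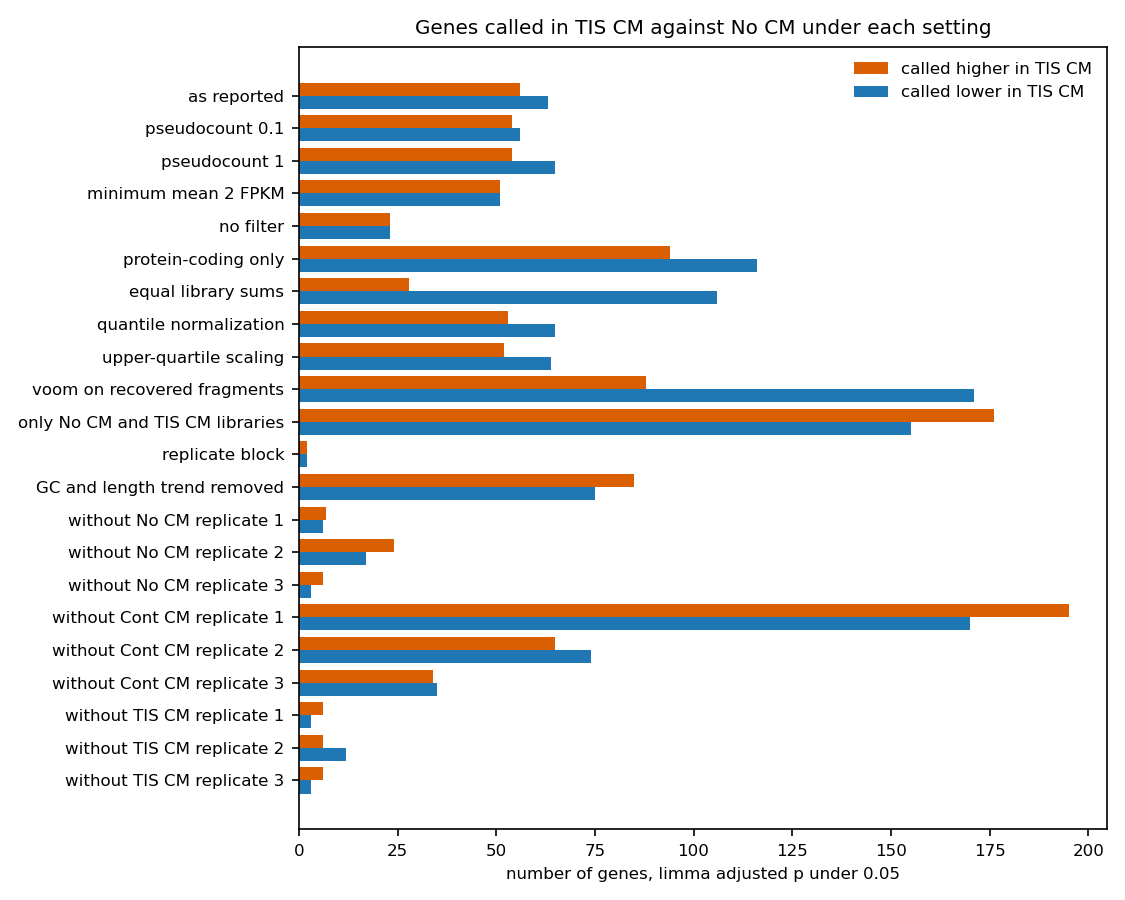
Number of genes called higher (orange) and lower (blue) in TIS CM against No CM on the x axis, for the analysis as reported and each alternative setting on the y axis. Leaving out any single No CM or TIS CM library lowers the counts to between 6 and 24 higher and between 3 and 17 lower, whereas leaving out Cont CM library 1 raises them to 195 and 170.

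The genes of both interleukin-1 ligands rose, and IL1A had the lowest adjusted p of all 119 calls. IL1A (ENSG00000115008, chr2:112773915-112784590), which encodes interleukin-1 alpha, stood at 7.88, 7.69 and 7.34 FPKM in No CM and at 18.2, 17.4 and 14.8 FPKM in TIS CM. The groups lay far apart, and IL1A rose by 1.09 ± 0.08 on the log2 scale (difference ± SE), or 2.12-fold, with a limma adjusted p of 0.00186. IL1B (ENSG00000125538, chr2:112829751-112836903), the neighbouring gene for interleukin-1 beta, went from 9.01, 9.79 and 8.90 FPKM to 18.0, 18.7 and 15.4 FPKM. Again every TIS CM library exceeded every No CM library, with a difference of 0.87 ± 0.09 and an adjusted p of 0.00611. In both genes the third TIS CM library was the lowest of its group. NLRP3, which encodes the sensor of the inflammasome that processes interleukin-1 beta, was also called, at 1.25 ± 0.12 FPKM in No CM and 1.84 ± 0.08 FPKM in TIS CM (SD, n = 3; adjusted p = 0.0488); it lies outside the naming rule and was picked after its values were seen. The other tested members of the family did not pass. The receptor genes IL1R1 and IL1RAP differed by -0.12 and 0.06, and the antagonist IL1RN by -0.11. Of 11 tested family members 2 were called higher and none lower, and the family median was 0.06.

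The bases before the starts of both interleukin-1 genes are shown because these neighbours moved together; they were read from RefSeq promoters on GRCh38.p14, minus strand, 5′ to 3′. Capitals mark the AP-1 site, TGANTCA, a palindromic motif bound by FOS and JUN family dimers, searched on both strands. IL1A spans chr2:112784494-112784743 and IL1B spans chr2:112836780-112837029.
IL1A: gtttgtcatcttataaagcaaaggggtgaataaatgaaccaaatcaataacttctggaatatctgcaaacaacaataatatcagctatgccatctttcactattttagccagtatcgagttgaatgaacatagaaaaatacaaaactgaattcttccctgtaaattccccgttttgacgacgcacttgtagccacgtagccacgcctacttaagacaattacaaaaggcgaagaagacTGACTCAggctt
IL1B: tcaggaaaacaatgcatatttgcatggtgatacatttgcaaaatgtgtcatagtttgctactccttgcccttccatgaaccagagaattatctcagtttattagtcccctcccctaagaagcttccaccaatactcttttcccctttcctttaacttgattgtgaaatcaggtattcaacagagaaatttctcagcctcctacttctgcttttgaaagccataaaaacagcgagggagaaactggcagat
The IL1A stretch holds 1 match that begins 12 bases before the start, and the full window from 250 bases before to 50 after the start holds another beginning 38 bases after it. The IL1B window held no such letters. Among all 27305 promoters 7.76% held the motif, and among 9422 promoters of tested genes 4.63% did. Of the called genes with a promoter in the table it was found in 3 of 35 higher and 2 of 44 lower. FOSL1, which encodes the AP-1 subunit FRA1, rose from 186 ± 10.2 to 234 ± 4.38 FPKM (SD, n = 3; adjusted p = 0.0429), while FOS itself was at 10.8, 5.93 and 4.68 FPKM in No CM and 4.71, 2.49 and 2.73 FPKM in TIS CM. The FOS groups overlapped, and its difference of -0.97 ± 0.29 did not pass (adjusted p = 0.193). Whether FOSL1 or FOS bears on genes with the motif was not tested.

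Among cytokines and chemokines, 2 of 22 tested genes were called higher and 1 lower, against 0.403% and 0.453% of all tested genes. The list median was 0.12. CSF2, which encodes the granulocyte-macrophage growth factor GM-CSF, measured 46.8, 48.0 and 48.1 FPKM in No CM and 78.9, 70.7 and 66.5 FPKM in TIS CM. The No CM libraries were tight and the TIS CM libraries were all above them, giving 0.59 ± 0.09 on the log2 scale (adjusted p = 0.0287). IL24, a cytokine of the IL-10 family, rose from 3.72, 3.67 and 4.33 FPKM to 5.20, 5.997 and 6.23 FPKM (0.52 ± 0.08, adjusted p = 0.0273). CX3CL1, the membrane-bound chemokine fractalkine, fell from 5.31, 5.30 and 5.11 FPKM to 3.74, 3.75 and 3.58 FPKM (-0.45 ± 0.05, adjusted p = 0.0101). CXCL8, which encodes IL-8, was at 157 ± 8.57 FPKM in No CM and 199 ± 12.7 FPKM in TIS CM (SD, n = 3) and did not pass in the limma fit of 9 libraries (adjusted p = 0.0585), but it was called higher in the fit of 6 libraries (adjusted p = 0.0375) and by voom (adjusted p = 0.0141). IL6 was at 36.4 ± 2.73 and 43.7 ± 0.97 FPKM (adjusted p = 0.626), and IL11 was at 28.1 and 40.1 FPKM (adjusted p = 0.089, and 0.0133 in the fit of 6 libraries). The fit of 6 libraries called 4 genes of the list higher and 2 lower, and voom called 6. The TIS CM libraries of CXCL8, IL6 and IL11 all lay above those of No CM, as they did for 12 genes of the list, with 3 lying wholly below. Among all tested genes 12.7% lay wholly above and 11.6% wholly below.

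Calls were rare among downstream and feedback genes of these cytokines, as among all tested genes, of which 0.855% were called. None of 20 NF-kB subunits and feedback genes was called by limma in the fit of 9 libraries, and their median was 0.00. An unadjusted limma p under 0.05 was reached by 5 of them, and by 1889 of all 13912 tested genes. The fit of 6 libraries called 2 higher and 1 lower, and voom on recovered fragments called 1. NFKBIA, the inhibitor that NF-kB itself induces, was at 82.6 FPKM in No CM and 81.4 FPKM in TIS CM, and ICAM1, an adhesion molecule that it also induces, was at 79.1 and 79.0 FPKM. CEBPB, which encodes the transcription factor C/EBP beta, rose from 46.8, 53.04 and 49.3 FPKM to 59.8, 59.0 and 61.6 FPKM (0.27 ± 0.05, adjusted p = 0.0412). It was the 1 gene of 16 tested on the STAT3 and SOCS list that was called, on a list with a median of -0.09. On that list 6 genes lay wholly below No CM and 2 wholly above, and on the NF-kB list 1 and 5. Among all tested genes 11.6% lay wholly below and 12.7% wholly above. SRGN, which encodes serglycin, the proteoglycan that packs secretory granules, rose from 53.5, 52.8 and 53.9 FPKM to 75.6, 73.2 and 69.4 FPKM (0.44 ± 0.04, adjusted p = 0.00611).

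**Figure D3:**
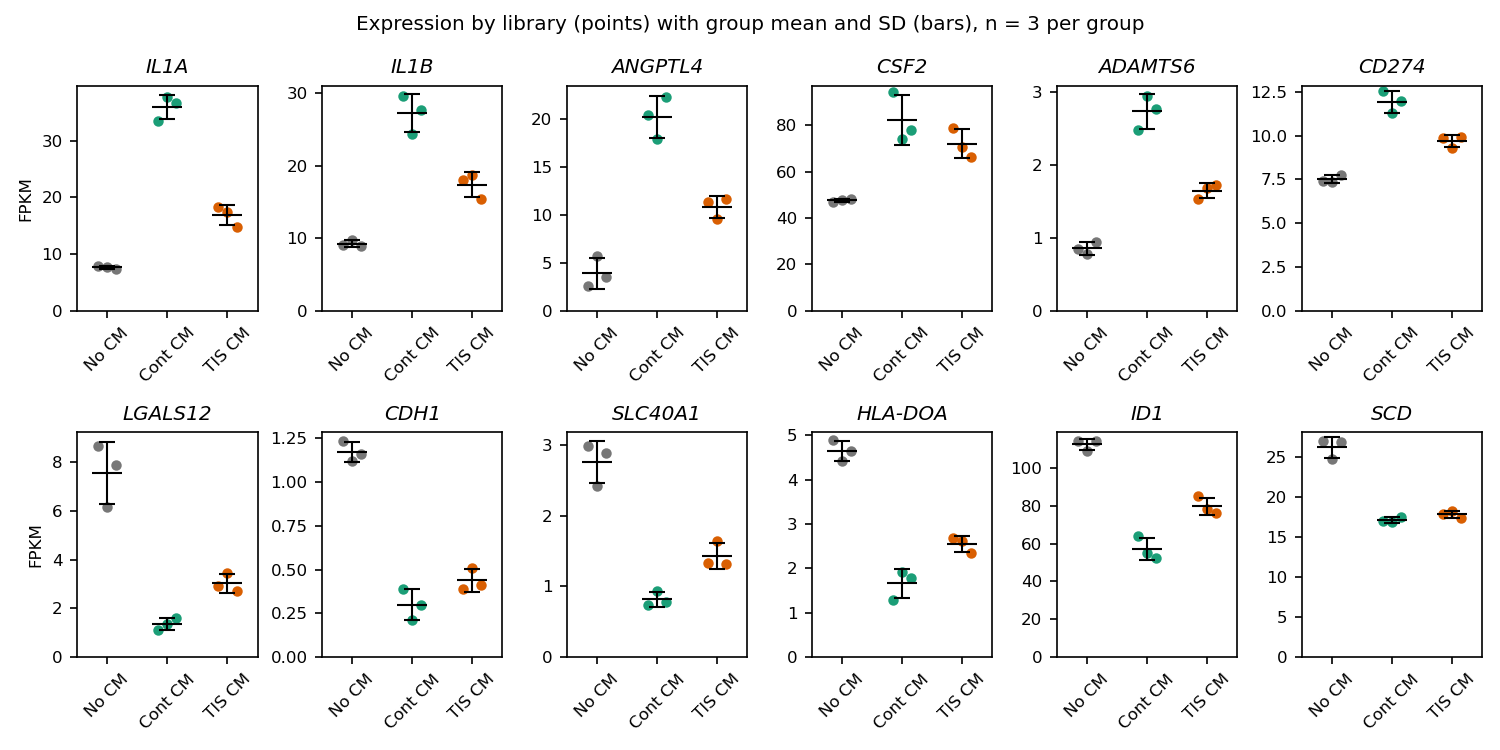
FPKM of 12 called genes on the y axis (linear scale from 0) for the 3 libraries of each medium on the x axis; points are libraries and bars are the group mean and SD. In the 6 genes of the upper row the TIS CM libraries sit above the No CM libraries, in the 6 of the lower row below them, and Cont CM is drawn beside them.

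Genes of matrix turnover and adhesion changed in both directions. PLAU, which encodes urokinase, the protease that activates plasminogen, rose from 167, 189 and 170 FPKM to 223, 213 and 222 FPKM (0.32 ± 0.05, adjusted p = 0.0326). No CM library 2 was the highest of its group and the TIS CM libraries lay clear of it. On the matrix protease list of 23 tested genes, ADAMTS6 rose from 0.843, 0.774 and 0.945 FPKM to 1.54, 1.68 and 1.73 FPKM (0.67 ± 0.08, adjusted p = 0.0148), whereas ADAMTS15 fell from 26.2, 26.2 and 27.4 FPKM to 19.9, 20.4 and 21.1 FPKM (-0.37 ± 0.05, adjusted p = 0.0142). Both encode secreted metalloproteases of the same family. MMP1, the interstitial collagenase, was at 288 FPKM in No CM and 448 FPKM in TIS CM without passing (adjusted p = 0.22), and in the fit of 6 libraries it was called (adjusted p = 0.00947). The adjusted p of PLAU lay between 0.0208 and 0.148 when 1 No CM or TIS CM library was left out, and that of ADAMTS6 between 0.0468 and 0.0795.

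Of 23 tested collagen and matrix genes, 2 were called higher and 2 lower, with a median of 0.06. COL8A1 rose from 19.4 ± 0.24 to 23.6 ± 0.32 FPKM, and LOX, the enzyme that crosslinks collagen, from 14.1 ± 0.50 to 17.2 ± 0.02 FPKM. COL6A1 fell from 33.9 ± 1.58 to 27.3 ± 1.40 FPKM, and COL18A1, the basement membrane collagen from which endostatin is cut, from 27.8 ± 0.47 to 23.4 ± 0.46 FPKM (SD, n = 3 for all; adjusted p between 0.0323 and 0.0414). Among 13 mesenchymal markers and EMT factors, CDH11, a mesenchymal cadherin, fell from 20.0 ± 0.91 to 15.1 ± 0.73 FPKM (adjusted p = 0.0144). VIM, another mesenchymal marker, was at a mean of 358 FPKM in both groups.

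TGF-beta and BMP signalling share the SMAD proteins but use separate receptor SMADs, and ID1 and ID3, which encode inhibitors of basic helix-loop-helix factors, are direct targets of the BMP branch. The BMP targets ID1, ID3 and ATOH8 fell. ID1 went from 114, 109 and 114 FPKM to 84.8, 78.2 and 76.2 FPKM (-0.49 ± 0.07, adjusted p = 0.0236). ID3 went from 18.1, 17.0 and 16.8 FPKM to 13.2, 13.7 and 12.1 FPKM (-0.40 ± 0.07, adjusted p = 0.0353). ATOH8, a helix-loop-helix factor that BMP also induces, went from 1.80, 1.66 and 1.74 FPKM to 0.763, 0.815 and 0.960 FPKM (-0.73 ± 0.10, adjusted p = 0.0233). No TIS CM library reached the level of any No CM library in these 3 genes. They were 3 of 12 tested genes on the BMP list, with none called higher and a list median of -0.17. On that list 6 genes lay wholly below No CM and 2 wholly above, against 11.6% and 12.7% of all tested genes. The ligand BMP4 was at 134 FPKM in No CM and 112 FPKM in TIS CM (adjusted p = 0.101), and NOG, which encodes the BMP antagonist noggin, was at 39.6 and 53.7 FPKM (adjusted p = 0.135); neither passed, whereas the fit of 6 libraries called BMP4 lower and NOG higher (adjusted p = 0.0116 and 0.027). On the TGF-beta list 2 of 21 tested genes were called higher. Among them was SMURF2, a ubiquitin ligase of TGF-beta receptors, which went from 44.5 ± 1.63 to 53.5 ± 1.47 FPKM (SD, n = 3, adjusted p = 0.0236). The median of that list was 0.02. In a single omission of a No CM or TIS CM library the adjusted p of ID1, ID3 and ATOH8 reached at most 0.126, 0.144 and 0.124.

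Some epithelial and luminal genes, CDH1 and AGR2 above all, were among the largest falls. CDH1, which encodes E-cadherin, fell from 1.23, 1.12 and 1.16 FPKM to 0.389, 0.511 and 0.414 FPKM (-0.83 ± 0.11, adjusted p = 0.0226). AGR2, a disulfide isomerase of mucus-secreting and luminal cells, fell from 2.54, 2.39 and 2.35 FPKM to 0.864, 1.34 and 0.770 FPKM (-0.99 ± 0.13, adjusted p = 0.0172). SPDEF, a luminal ETS factor, fell from 19.4, 19.5 and 21.0 FPKM to 16.8, 16.1 and 16.9 FPKM (-0.26 ± 0.05, adjusted p = 0.0438). The TIS CM library 2 was the highest of its group for CDH1 and AGR2 and still lay below all No CM libraries. These were 3 of 17 tested epithelial and luminal markers, with none called higher and a median of -0.17. TIS CM libraries lay wholly below No CM in 9 of the 17 and wholly above in 1, against 11.6% and 12.7% of all tested genes. ELF3, an epithelial ETS factor, was at 1.40 and 0.70 FPKM (adjusted p = 0.0551) and the keratin KRT18 at 153 and 128 FPKM (adjusted p = 0.199), and neither passed, though the fit of 6 libraries called both (adjusted p = 0.0274 and 0.0279) and 7 genes of the list in all, every one lower. EPCAM was at 8.42 and 8.61 FPKM. Other epithelial genes with large falls were TRIM29, from 2.19 ± 0.15 to 1.17 ± 0.11 FPKM, and CD24, from 3.65 ± 0.26 to 2.27 ± 0.29 FPKM (SD, n = 3), the latter a gene with near-identical copies whose reads could be split. With 1 library of either group left out, the adjusted p of AGR2 lay between 0.00897 and 0.0924, and that of CDH1 between 0.0571 and 0.12.

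All calls on the antigen presentation and interferon-stimulated gene lists were falls, 2 of 14 MHC class II genes and 5 of 37 interferon-stimulated genes. MHC class II molecules present peptides to CD4+ T cells and are switched on through CIITA together with RFX5 and its partners. HLA-DOA, which encodes a chain of the class II peptide-loading regulator HLA-DO, fell from 4.88, 4.43 and 4.65 FPKM to 2.69, 2.61 and 2.35 FPKM (-0.76 ± 0.11, adjusted p = 0.0236). RFX5 fell from 20.4, 20.1 and 19.9 FPKM to 17.8, 17.3 and 17.4 FPKM (-0.20 ± 0.04, adjusted p = 0.0444). HLA-DRA, the common alpha chain of HLA-DR, stood at 284, 227 and 263 FPKM in No CM and at 169, 166 and 148 FPKM in TIS CM; the groups did not overlap, but its difference of -0.68 ± 0.21 did not pass (adjusted p = 0.206). CIITA was at 2.07, 1.81 and 1.85 FPKM against 1.52, 1.45 and 1.64 FPKM, also without overlap or a call (adjusted p = 0.351). Of the 14 tested class II genes 10 had TIS CM libraries wholly below No CM, where 11.6% of all tested genes did, and the median was -0.44. In the fit of the 6 No CM and TIS CM libraries alone, 8 of the 14 were called lower, HLA-DRA among them at an adjusted p of 0.0196. HLA genes are closely related in sequence and reads could be shared among them. Of 21 tested class I and peptide-loading genes none was called, with a median of -0.09 and 8 wholly below No CM, against 11.6% of all tested genes. Limma gave 4 an unadjusted p under 0.05, as it did 1889 of all 13912. The fit of 6 libraries called 3 lower, and voom called 1.

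The 37 tested interferon-stimulated genes, of which 5 were called lower and none higher, had a median of -0.19 against 0.00 for all genes. TIS CM libraries lay wholly below No CM in 23 of them, where 11.6% of all genes did. OASL, an antiviral protein related to the oligoadenylate synthetases, fell from 10.8, 10.97 and 12.4 FPKM to 7.91, 7.78 and 7.53 FPKM (-0.52 ± 0.06, adjusted p = 0.0101). IFIT3, which binds viral RNA together with its relatives, fell from 65.4, 66.3 and 71.7 FPKM to 53.2, 57.1 and 51.0 FPKM (-0.33 ± 0.06, adjusted p = 0.0412). IFI35 fell from 10.5 ± 0.39 to 8.35 ± 0.46 FPKM and HERC5, the ligase that attaches ISG15, from 13.5 ± 0.25 to 11.6 ± 0.36 FPKM (SD, n = 3; adjusted p 0.0412 and 0.0441). IFITM3, a membrane protein that blocks viral entry and has a close copy in IFITM2, fell from 115, 118 and 122 FPKM to 97.5, 105 and 100.5 FPKM, at the edge of the threshold (-0.23 ± 0.04, adjusted p = 0.0499). Against these falls CD274, which encodes the T-cell inhibitory ligand PD-L1 and is itself inducible by interferon, rose from 7.40, 7.34 and 7.77 FPKM to 9.86, 9.29 and 9.94 FPKM (0.35 ± 0.05, adjusted p = 0.0236). It was the call among 8 tested checkpoint ligands. With 1 library of either group left out, the adjusted p of OASL ranged from 0.0234 to 0.0704, and that of CD274 from 0.0626 to 0.124.

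To show promoter letters found in some called genes of either direction, stretches of 60 bases are printed for 5 of them. They surround the core of the interferon-stimulated response element, GAAANNGAA, which interferon regulatory factors bind. Each is given 5′ to 3′ on the strand of its gene, from RefSeq promoters on GRCh38.p14, with every match in capitals, and matches on either strand are marked, those of the opposite strand as the reverse complement. The first 3 genes fell and the last 2 rose. IFIT3 lies at chr10:89327816-89327875 (plus strand), HERC5 at chr4:88456969-88457028 (plus), IFITM3 at chr11:320879-320938 (minus), CD274 at chr9:5450309-5450368 (plus) and IL24 at chr1:206897335-206897394 (plus).
IFIT3: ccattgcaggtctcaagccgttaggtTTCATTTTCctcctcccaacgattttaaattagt
HERC5: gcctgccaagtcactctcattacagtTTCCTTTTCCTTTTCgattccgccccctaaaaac
IFITM3: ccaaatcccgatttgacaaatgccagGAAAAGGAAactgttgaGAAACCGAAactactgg
CD274: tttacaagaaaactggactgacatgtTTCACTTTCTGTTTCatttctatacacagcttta
IL24: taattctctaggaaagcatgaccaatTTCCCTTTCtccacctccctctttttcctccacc
In HERC5 and CD274, 2 matches overlap, and IFITM3 has 2 separate ones in the stretch. The core was present in 8.29% of all 27305 promoters and in 6.47% of those of tested genes. It was present in 19 of the 27 tested interferon-stimulated genes that had a promoter in the table, 70.4%. Among called genes with a promoter it occurred in 5 of 44 that fell and in 4 of 35 that rose. Those not printed were GBP4 and PLEKHS1, which fell, and CERCAM and SH3BP5L, which rose. A match describes the letters only.

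Called lipid genes rose on the PPAR list and fell on the fatty acid synthesis list. ANGPTL4 (ENSG00000167772, chr19:8363289-8374373) encodes a secreted inhibitor of lipoprotein lipase and is a target of the PPAR nuclear receptors and of hypoxia. It stood at 2.55, 5.69 and 3.47 FPKM in No CM and at 11.3, 9.55 and 11.6 FPKM in TIS CM. No CM library 2 was the highest of its group, the groups did not overlap, and ANGPTL4 rose by 1.42 ± 0.22 (2.68-fold, adjusted p = 0.0282), the widest difference of any protein-coding gene called. SLC25A20, the carnitine carrier that takes fatty acids into mitochondria, rose from 6.77, 7.64 and 7.496 FPKM to 9.34, 10.3 and 9.35 FPKM (0.38 ± 0.07, adjusted p = 0.0488). These were 2 of 17 tested PPAR lipid targets, with none called lower and a median of 0.16. On this list 9 genes lay wholly above No CM and 2 wholly below, against 12.7% and 11.6% of all tested genes. PLIN2, which coats lipid droplets, was at 18.6 and 24.3 FPKM and missed the threshold (adjusted p = 0.0654, and 0.0175 with voom). With 1 No CM or TIS CM library left out, the adjusted p of ANGPTL4 lay between 0.00782 and 0.136.

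Fatty acid synthesis was represented among the falls. SCD, the desaturase that makes oleate, went from 27.1, 24.8 and 26.9 FPKM to 17.9, 18.3 and 17.5 FPKM. The replicates were tight and the groups wide apart, and SCD fell by 0.54 with an SE of 0.04 (adjusted p = 0.00279). SREBF1, which encodes the master regulator SREBP1 of this pathway, fell from 13.8, 12.8 and 13.9 FPKM to 8.98, 9.59 and 9.01 FPKM (-0.53 ± 0.06, adjusted p = 0.00957). Of 18 tested fatty acid synthesis genes these 2 were called, and the median was -0.04; FASN, the synthase itself, was at 23.8 and 21.5 FPKM (adjusted p = 0.422). In the same omissions SCD kept its call, with an adjusted p of at most 0.0317, and SREBF1 reached 0.0704.

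The iron, amino acid, redox and xenobiotic lists held 1 or 2 calls each, where 0.855% of all tested genes were called. SLC40A1, which encodes ferroportin, the iron exporter, fell from 2.98, 2.42 and 2.88 FPKM to 1.32, 1.64 and 1.32 FPKM (-0.76 ± 0.10, adjusted p = 0.0236). TFRC, the transferrin receptor that brings iron in, rose from 75.8, 75.7 and 73.8 FPKM to 86.4, 84.5 and 89.7 FPKM (0.21 ± 0.04, adjusted p = 0.038). The ferritin chains FTH1 and FTL differed by 0.03 and 0.02 and did not pass, and the 11 tested iron genes had a median of 0.02. SLC7A11, the cystine importer that feeds glutathione synthesis, rose from 5.41, 4.98 and 4.39 FPKM to 7.68, 6.83 and 6.64 FPKM (0.48 ± 0.08, adjusted p = 0.0345) and was the call among 15 amino acid transporters and among 24 NRF2 and redox genes. GPT2, a mitochondrial alanine transaminase induced by ATF4, rose from 3.87, 4.08 and 4.25 FPKM to 5.04, 5.13 and 4.92 FPKM (0.28 ± 0.05, adjusted p = 0.0438). On the ATF4 list of 19 tested genes it was the call, and the median was 0.13. There 11 genes lay wholly above No CM and none wholly below, against 12.7% and 11.6% of all tested genes. CYP1A1, the hydroxylase that marks activity of the aryl hydrocarbon receptor, rose from 0.854, 1.10 and 0.975 FPKM to 1.68, 1.80 and 1.74 FPKM (0.60 ± 0.08, adjusted p = 0.0154), while CYP1B1, another target of that receptor, was at 44.2 and 41.0 FPKM (adjusted p = 0.76).

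The largest fall among called genes was that of LGALS12 (ENSG00000133317, chr11:63506084-63516774), which encodes galectin-12, a lectin best known from fat cells. It measured 8.66, 6.17 and 7.88 FPKM in No CM and 2.94, 3.46 and 2.71 FPKM in TIS CM, without overlap (-1.18 ± 0.14, 2.27-fold lower, adjusted p = 0.0131). SPINK4, a secreted protease inhibitor of the Kazal type, fell from 18.7, 17.8 and 17.2 FPKM to 10.3, 9.64 and 7.51 FPKM (-0.94 ± 0.17, adjusted p = 0.0465). PI16, another secreted inhibitor, fell from 5.13, 4.17 and 5.43 FPKM to 2.23, 2.89 and 2.32 FPKM (-0.86 ± 0.12, adjusted p = 0.0236). PI16 also stands on the list of fibroblast markers, of which DCN and DPT were at 0 and PDGFRA, FAP, COL3A1, POSTN and THY1 below 0.1 FPKM in every group mean. PDGFRB, also on that list, reached the level needed for testing and was not called. Beyond the falls given above, the 15 largest of protein-coding genes included PLEKHS1 (-0.72), the water channel AQP1 (-0.61) and the axon guidance ligand SEMA3F (-0.60). Beyond the rises given above, the 15 largest included MARCH4 (0.57), a membrane ubiquitin ligase, RGS4 (0.56), which shortens G-protein signals, GALNT6 (0.45), which starts mucin-type glycosylation, and SEMA7A (0.44), a membrane-anchored semaphorin. U2AF1L5 rose from 0.428, 0.626 and 0.409 FPKM to 1.40, 1.56 and 0.968 FPKM, but it is a near-identical copy of the splicing factor gene U2AF1 and its reads are uncertain. Other single calls on a list were CLU, which encodes the extracellular chaperone clusterin, from 16.1 ± 0.89 to 11.7 ± 0.33 FPKM, LFNG, a modifier of Notch, from 4.99 ± 0.23 to 3.95 ± 0.10 FPKM, and CDC25B, a phosphatase that starts mitosis, from 51.1 ± 0.52 to 44.0 ± 1.17 FPKM (SD, n = 3), all lower.

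**Figure D4:**
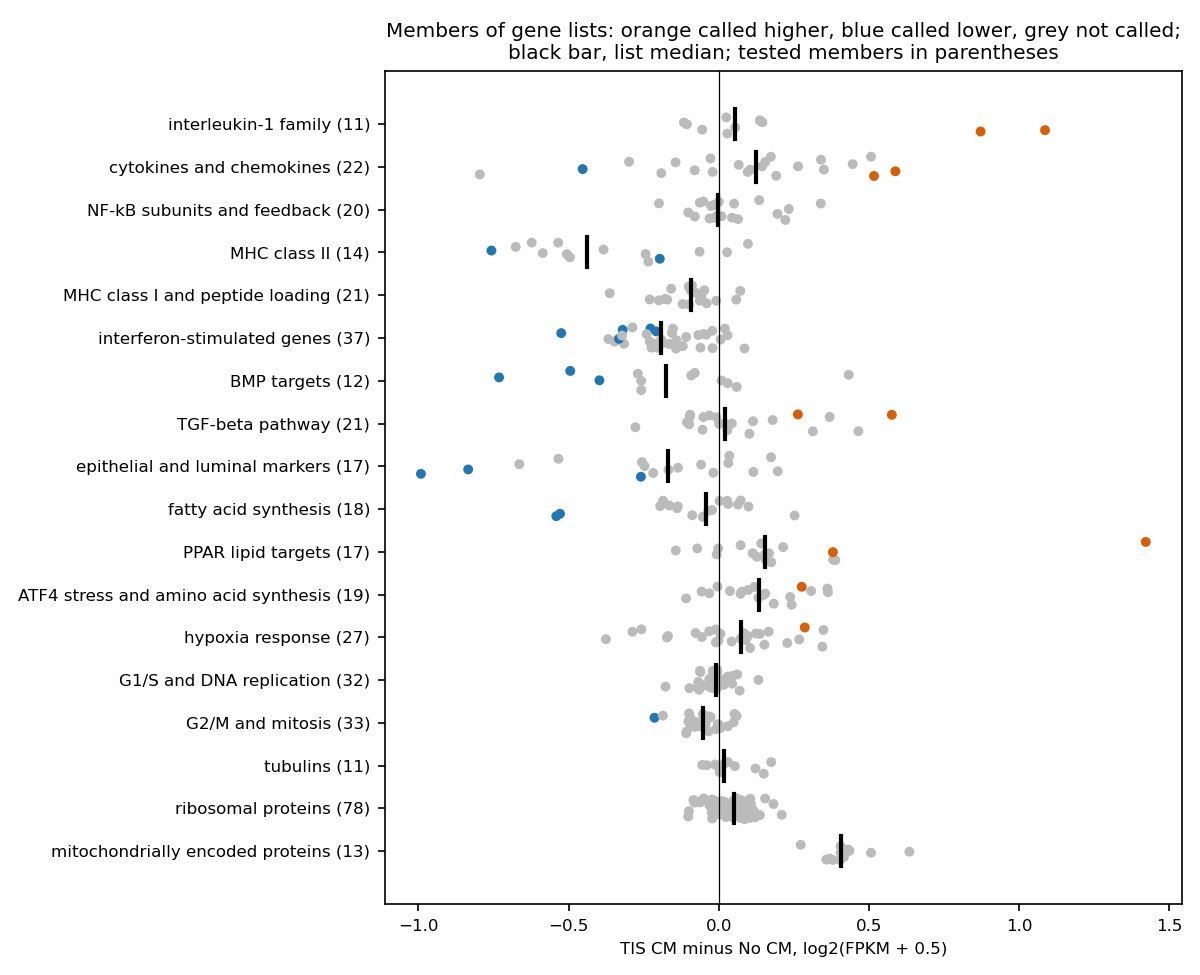
Difference between TIS CM and No CM in log2(FPKM + 0.5) on the x axis for the tested members of 18 gene lists on the y axis; points are genes, coloured where called, and black bars are list medians. The MHC class II, interferon, BMP and epithelial lists have medians of -0.44, -0.19, -0.17 and -0.17, the PPAR and ATF4 lists 0.16 and 0.13, and the cell cycle and tubulin lists lie near 0.

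Calls were rare among proliferation and senescence genes, as they were among all tested genes, of which 0.855% were called. None of 32 tested G1/S and replication genes was called (median -0.01), and of 33 G2/M genes CDC25B was the single one (median -0.05). MKI67, which encodes the proliferation antigen Ki-67, was at 42.0, 34.4 and 38.5 FPKM in No CM and 35.6, 38.0 and 34.96 FPKM in TIS CM, overlapping (adjusted p = 0.775). CDKN1A, which encodes the cell cycle inhibitor p21, was at 32.6, 28.5 and 30.05 FPKM and 35.8, 35.05 and 34.5 FPKM; the groups did not overlap but the difference of 0.21 ± 0.10 did not pass (adjusted p = 0.412). CDKN2A and CDKN2B, the inhibitors p16 and p15, were at 0 in all group means. LMNB1, the nuclear lamin that senescent cells lose, was at 44.6 ± 1.12 FPKM in No CM and 39.4 ± 0.99 FPKM in TIS CM (SD, n = 3; adjusted p = 0.24, and 0.0444 in the fit of 6 libraries). GLB1, which encodes the lysosomal galactosidase behind the senescence stain, was at 22.1 ± 0.51 and 22.7 ± 1.52 FPKM (adjusted p = 0.873). None of 15 tested senescence markers or 21 p53 targets was called. TIS CM libraries lay wholly below No CM in 6 senescence markers and wholly above in 1. The same counts were 3 and 6 for p53 targets, 4 and 0 for G2/M genes, and 1 and 1 for G1/S genes. Among all tested genes 11.6% lay wholly below and 12.7% wholly above. Of the 33 G2/M genes 27 had a difference below 0, as had 6791 of all 13912. At an unadjusted limma p under 0.05 there were 1 G1/S and replication gene, 5 senescence markers and 3 p53 targets, against 1889 of all 13912 tested genes. Voom called 0 genes on these 3 lists. The fit of 6 libraries called 3 senescence markers lower, LMNB1 among them, and no gene of the other two lists.

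Tubulin messages are known to fall when free tubulin rises, as nocodazole causes in treated cells. None of 11 tested tubulin-related genes was called in the recipient cells by limma or voom, and their median was 0.02. An unadjusted limma p under 0.05 was reached by 2, both higher, against 1889 of all 13912 tested genes. TUBB6 was at 74.3 ± 1.77 and 82.5 ± 2.61 FPKM, and TUBA4A at 10.5 ± 0.69 and 11.9 ± 0.43 FPKM (SD, n = 3). On this list 3 genes lay wholly above No CM and 0 wholly below, where 12.7% and 11.6% of all tested genes did. TUBB was at 1175 ± 33.5 FPKM in No CM and 1142 ± 10.6 FPKM in TIS CM, TUBA1B at 441 ± 16.8 and 447 ± 4.13 FPKM, and TUBB4B at 455 ± 19.9 and 453 ± 10.8 FPKM (SD, n = 3). TUBB2A and TUBB2B have closely similar sequences, and their values, 38.1 and 37.6 FPKM and 2.39 and 2.42 FPKM, are less certain. TTC5, the factor that recognises tubulin as it is being made, was at 1.42 ± 0.18 and 1.34 ± 0.03 FPKM. In Cont CM against No CM, which shares the No CM libraries, limma called 3 genes of the list higher and 0 lower. Whether nocodazole reached the recipient cells was not tested.

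All 13 mitochondrially encoded protein genes had a higher mean in TIS CM, with differences from 0.27 to 0.63 and a median of 0.41, but none was called by limma or voom and none had separate groups. At an unadjusted limma p under 0.05 there were 8 of the 13, against 1889 of all 13912 tested genes. The share of fragments from the mitochondrial genome was 3.15%, 2.17% and 1.85% in No CM and 2.95%, 3.07% and 3.03% in TIS CM, so No CM library 1 lay above all TIS CM libraries. Depending on which library was left out, the median of the list lay between 0.24 and 0.62. The mitochondrial transfer RNA gene MT-TE (69 bases) rose from 3.21, 4.02 and 3.38 FPKM to 11.1, 10.8 and 8.41 FPKM (1.39 ± 0.12, adjusted p = 0.00311), on 8 to 10 fragments in the No CM libraries and 22 to 27 in the TIS CM libraries. Voom on recovered fragments gave it an adjusted p of 0.0521. Whether the mitochondrial share bears on MT-TE was not tested. Ribosomal protein genes and nuclear oxidative phosphorylation genes had no limma or voom call among 78 and 51 tested, with medians of 0.05 and 0.02, and 5 and 1 of them had an unadjusted limma p under 0.05. The fit of 6 libraries called 1 ribosomal protein gene higher.

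Of the 119 calls 110 were protein coding, 7 other genes rose and 2 fell. RF02180, a short RNA listed on chromosome 7, was called higher on 0, 0 and 1 fragments in No CM and 5, 4 and 8 in TIS CM. RF00410 was called on 3, 2 and 1 against 5, 11 and 8 fragments (adjusted p = 0.0499). AC011558.1 fell from 10.6, 12.4 and 11.98 FPKM to 7.86, 8.27 and 7.96 FPKM (-0.51 ± 0.09, adjusted p = 0.0412), and AC005736.1 from 1.79, 1.74 and 1.82 FPKM to 1.19, 1.198 and 1.14 FPKM (-0.44 ± 0.07, adjusted p = 0.0323). The calls of RF02180 and RF00410 rest on a few fragments. Voom did not call AC011558.1 (adjusted p = 0.111).

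The medium of non-senescent cells was set beside these values to show whether the senescent medium left the cells at a different level. Both contrasts with plain medium use the same No CM libraries, so the direct contrast of TIS CM with Cont CM is the test of that difference. IL1A was at 33.5, 37.7 and 36.7 FPKM in Cont CM, above every TIS CM library, and TIS CM was lower (-1.08 on the log2 scale, adjusted p = 0.000675). IL1B was at 27.3 ± 2.67 FPKM in Cont CM (SD, n = 3) and was lower in TIS CM (-0.64, adjusted p = 0.0122). CD274 was at 11.9 ± 0.63 FPKM in Cont CM and lower in TIS CM (-0.29, adjusted p = 0.0211). Among the genes below the plain-medium level, ID1 was at 57.1 ± 5.96 FPKM in Cont CM and higher in TIS CM (0.48, adjusted p = 0.0145), and LGALS12 was at 1.36 ± 0.26 FPKM and higher in TIS CM (0.93, adjusted p = 0.0154). The same held for HLA-DOA (0.51, adjusted p = 0.0363), SREBF1 (0.33, adjusted p = 0.0206) and CX3CL1 (0.60, adjusted p = 0.00218).

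**Figure D5:**
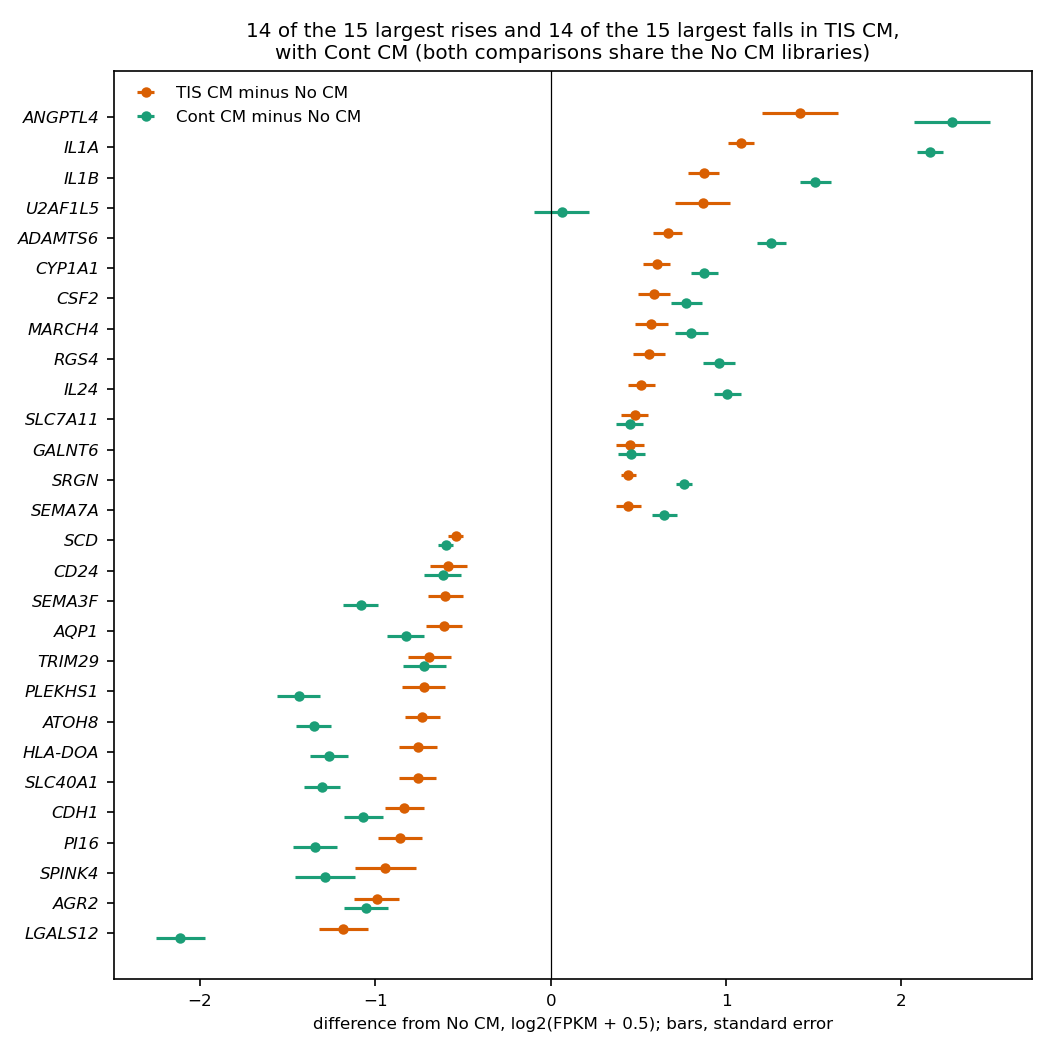
Difference from No CM in log2(FPKM + 0.5) on the x axis, for TIS CM (orange) and Cont CM (green), with SE bars, for 14 of the 15 largest rises and 14 of the 15 largest falls of TIS CM on the y axis. The points share the No CM libraries; IL1A stands at 1.09 in TIS CM and 2.16 in Cont CM, and SCD at -0.54 and -0.60.

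Other genes did not differ between the conditioned media by this test. SCD was at 17.2 ± 0.33 FPKM in Cont CM and 17.9 ± 0.44 FPKM in TIS CM (adjusted p = 0.463), OASL at 6.90 ± 0.32 and 7.74 ± 0.19 FPKM (adjusted p = 0.148), and CDH1 at 0.30 ± 0.09 and 0.44 ± 0.06 FPKM (adjusted p = 0.243). PLAU was at 213 ± 3.98 and 219 ± 6.01 FPKM (adjusted p = 0.668), SLC7A11 at 6.89 ± 0.24 and 7.05 ± 0.55 FPKM (adjusted p = 0.866) and CSF2 at 82.3 ± 10.9 and 72.1 ± 6.32 FPKM (adjusted p = 0.253; SD, n = 3 for all). A p above the threshold does not show that these levels are equal, and for CSF2 the Cont CM libraries, from 73.9 to 94.6 FPKM, overlapped the TIS CM libraries. ANGPTL4 was at 20.2 ± 2.23 FPKM in Cont CM and 10.8 ± 1.13 FPKM in TIS CM without overlap, and its difference of -0.87 missed the threshold (adjusted p = 0.0567).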

How the data were processed

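The 3 No CM, 3 Cont CM and 3 TIS CM libraries were grouped by their treatment labels. Per the labels' protocols, messenger RNA was captured on poly-T beads and primed with random hexamers. The authors deposited FPKM for 58735 genes, 29086 of them at 0 everywhere, with gene position and gene length in bases. The submitters' processing notes name build hg38 with DESeq2 1.20.0, featureCounts 1.5.0-p3, HISAT2 2.0.5 and fastp. Roles, settings and strand use are not given in the sources used here; overlapping and antisense genes cannot be separated. Gene identifiers fit GENCODE 29 (Ensembl 94).

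FPKM times gene length fell on whole multiples of 1 step in 100% of values (within 0.01), which gave 32636708 to 39189036 fragments per library. Genes with a mean of at least 0.5 FPKM over 9 libraries were fitted as log2(FPKM + 0.5), a scale that compresses differences of weakly expressed genes, with limma 3.58.1 in R 4.3.3: group means of all 9 libraries, an intensity trend, moderated variances and Benjamini-Hochberg adjustment over 13912 genes. The script was tested on simulated data. An exact permutation test of 3 against 3 libraries cannot go below p = 0.1 and was not used.

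Named genes were, per direction, the 15 largest protein-coding calls whose libraries did not overlap and whose higher group averaged 1 FPKM or more, up to 5 called members of each of 56 gene lists, the 4 largest non-coding calls, and a fixed set that includes cell cycle inhibitors, tubulins and major cytokines; some of these genes are not reported here. The comparison and the lists were chosen with earlier results of these data known. Of 1201 list genes 999 were tested. Promoters, 250 bases before to 50 after the start, are from RefSeq (GRCh38.p14) and matched 79 of the 119 called genes by symbol. In all, 4 motifs were searched. The hypoxia response element core, ACGTG, was found in 13 of 35 higher and 9 of 44 lower genes, and in 27.3% of tested promoters. The Y box core, CTGATTGG, was found in 0 of 35 and 1 of 44, and in 5.48% of tested promoters. The table held 0 sample columns without a label. Tables used pandas 2.3.3 and figures matplotlib 3.10.9 in Python 3.11.15.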

Additional observations from a re-analysis of the deposited data

How the results depend on the processing

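The counts of 56 higher and 63 lower genes depended on the settings. No called gene changed direction in any of them. For the omissions this was fixed beforehand, since the TIS CM and No CM libraries of every called gene did not overlap. No filter on low values left 23 higher and 23 lower (32 of the 119 kept, with 29649 genes tested), and testing protein-coding genes alone gave 94 and 116 (all 110 coding calls kept). Scaling the libraries to equal FPKM sums gave 28 and 106, so that 20.9% of calls were higher against 47.1%, with the median of all genes at -0.04. Voom on recovered fragments gave 88 and 171 (113 kept, 34.0% higher), the fit of the No CM and TIS CM libraries alone 176 and 155, and removal of a GC and length trend 85 and 75. Pseudocounts of 0.1 and 1, a minimum mean of 2 FPKM, quantile normalization and upper-quartile scaling kept the counts between 51 and 54 higher and 51 and 65 lower. Leaving out 1 of the 9 libraries gave between 6 and 195 higher and between 3 and 170 lower calls; the cause of the dependence on single libraries was not tested. With the replicate number as a block, 2 higher and 2 lower genes remained called (4 of the 119 kept). Same-numbered No CM and TIS CM libraries had deviations correlated at 0.03, -0.08 and -0.02, and the TIS CM libraries did not all correlate best with their own number. Correlations over all genes cannot tell whether same-numbered libraries were handled together, and no source used here says so. Over all these settings the medians of the MHC class II, interferon-stimulated, BMP and epithelial lists stayed below 0 and those of the PPAR, ATF4 and cytokine lists above 0, whereas the TGF-beta and tubulin medians crossed 0 (to -0.02 and -0.03). At this depth genes of a few fragments, such as RF02180, allow no fold.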

Other observations

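The values of 4 called genes that TIS CM held above both other media are given side by side; they were chosen after their values were seen, do not stand for the other calls, and no explanation was tested. KIFC3, a minus-end-directed kinesin, was at 18.4 ± 0.10 FPKM in No CM, 18.9 ± 0.75 FPKM in Cont CM and 21.5 ± 0.26 FPKM in TIS CM (SD, n = 3), with limma adjusted p-values of 0.0356 against No CM and 0.0325 against Cont CM. MT-TE was at 3.54 ± 0.43, 6.45 ± 0.71 and 10.1 ± 1.46 FPKM in the same order (adjusted p = 0.00311 and 0.0307). U2AF1L5, whose reads are uncertain, was at 0.49 ± 0.12, 0.53 ± 0.13 and 1.31 ± 0.31 FPKM (adjusted p = 0.0441 and 0.0296). TMEM183B, a processed pseudogene whose parent gene could supply its reads, was at 2.69 ± 0.14, 2.82 ± 0.07 and 3.48 ± 0.02 FPKM (adjusted p = 0.0356 and 0.0325); with voom on recovered fragments its adjusted p against No CM was 0.239. For each of these genes except MT-TE, leaving out 1 No CM or TIS CM library took the adjusted p against No CM above 0.05 in every case.

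Called genes outside the lists included PTGES, which makes prostaglandin E2, lower in TIS CM (95.4 ± 6.09 FPKM in No CM and 68.9 ± 4.91 FPKM in TIS CM, adjusted p = 0.0356). FOXQ1, a forkhead factor, was lower too (25.6 ± 0.99 and 18.1 ± 0.90 FPKM, adjusted p = 0.00907). PPP1R15A, the stress-induced phosphatase subunit GADD34, was higher (44.1 ± 1.82 and 56.2 ± 2.27 FPKM, adjusted p = 0.0141). These genes, too, were picked after their values were seen.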
